A study of Mus musculus with 26 samples.

Results

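The wide H3K27me3 domains of wild-type mouse embryonic fibroblasts (MEFs) are the stretches of chromatin in which trimethylation of lysine 27 of histone H3 was called without a break over 20 kb or more. They were taken as the peaks of WT replicate 1 that span at least 20 kb and overlap a peak of WT replicate 2, so their width in WT was chosen and is given here as a description. Of the 36011 peaks of that replicate, 555 (1.54%) were this wide, and all 555 overlapped a peak of WT replicate 2. They held 17.8% of the bases of the list and 0.671% of the genome (18.3 Mb). The narrowest member spanned 20020 bp, and the widest peak below the limit spanned 19950 bp.

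The series profiled cultured female MEFs by CUT&RUN, which releases and sequences the DNA bound by an antibody, and by RNA-Seq of polyadenylated RNA. The groups were WT cells without an edit, the ATRXΔRBR line, in which CRISPR removed the RNA binding region (RBR) from the endogenous Atrx gene, and cells that carry an shRNA against ATRX (ATRX KD), selected with puromycin. ATRXΔRBR is 1 clone, picked after transfection and a brief puromycin selection, which the WT cells are not stated to have undergone, so its differences from WT cannot be told apart from those of a single clone. The broad peaks of H3K27me3 and EZH2 were given for WT, ATRXΔRBR and ATRX KD cells, those of ATRX for WT and ATRXΔRBR cells, and RNA for all 3 groups, with 2 replicates each. The study states that its genome-wide experiments were repeated and calls the replicates biological. It does not say for these libraries whether they came from separate cultures, so p-values speak of the spread between these libraries. The RNA-Seq libraries held between 9051690 and 21723600 estimated counts, and the peak lists hold no read totals. The study states a range of reads for its samples as a whole, not the depth of each CUT&RUN library.

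H3K27me3 is placed by the polycomb repressive complex PRC2, whose catalytic subunit is EZH2, and it marks genes that are kept silent through development. In mammals PRC2 is recruited to islands of unmethylated CpG at the starts of genes for developmental regulators, and the mark spreads from there over the surrounding chromatin. The widest H3K27me3 domains of fibroblasts are known to include Hox clusters and other homeobox genes of lineages that the cell did not take. ATRX is a chromatin remodeler that binds RNA and has been linked to the placement of PRC2.

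Promoter sequences are shown for 5 genes of these domains, to show transcription start sites (TSS) that differ in CG content and in the EZH2 peaks over them. Each runs 5′ to 3′ from 250 bases before to 50 bases after the start, as given by RefSeq on GRCm38.p6, and the capitals mark CG dinucleotides. Pax2 (chr19:44755502-44755801, plus strand) encodes a paired-box factor of kidney and nervous system and lies in the second widest domain. Its TSS was under an EZH2 peak in all 6 EZH2 lists. Six2 (chr17:85688205-85688504, minus strand) is a homeobox factor of kidney progenitors, and Isl1 (chr13:116309639-116309938, minus strand) a LIM homeobox factor of motor neurons and heart. Their TSS were under EZH2 in WT and in the list labelled ATRXΔRBR replicate 2, but not in ATRXΔRBR replicate 1 or in ATRX KD. In both ATRX KD lists, however, an EZH2 peak began just upstream of the Six2 TSS, over part of the printed sequence. These peaks began at 4.12 and 4.16 kb from the domain's centre, with the TSS at 4.05 kb. Krt2 (chr15:101818120-101818419, minus strand), an epidermal keratin, was under no EZH2 peak in any list. Tchh (chr3:93442080-93442379, plus strand), the hair follicle protein trichohyalin, was under an EZH2 peak in WT replicate 2 and in both ATRXΔRBR lists only.
Pax2: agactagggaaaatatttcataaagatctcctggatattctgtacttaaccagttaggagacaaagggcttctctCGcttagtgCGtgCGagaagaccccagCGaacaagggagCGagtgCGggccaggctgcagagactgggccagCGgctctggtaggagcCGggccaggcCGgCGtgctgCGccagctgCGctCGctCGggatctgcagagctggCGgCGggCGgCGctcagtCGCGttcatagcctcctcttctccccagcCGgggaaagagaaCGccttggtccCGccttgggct
Six2: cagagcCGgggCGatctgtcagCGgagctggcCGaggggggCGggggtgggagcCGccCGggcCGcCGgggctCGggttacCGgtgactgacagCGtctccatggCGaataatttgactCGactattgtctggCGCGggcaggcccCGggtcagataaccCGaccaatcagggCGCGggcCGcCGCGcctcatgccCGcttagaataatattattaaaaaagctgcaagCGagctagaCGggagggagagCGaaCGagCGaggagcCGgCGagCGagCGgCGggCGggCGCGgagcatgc
Isl1: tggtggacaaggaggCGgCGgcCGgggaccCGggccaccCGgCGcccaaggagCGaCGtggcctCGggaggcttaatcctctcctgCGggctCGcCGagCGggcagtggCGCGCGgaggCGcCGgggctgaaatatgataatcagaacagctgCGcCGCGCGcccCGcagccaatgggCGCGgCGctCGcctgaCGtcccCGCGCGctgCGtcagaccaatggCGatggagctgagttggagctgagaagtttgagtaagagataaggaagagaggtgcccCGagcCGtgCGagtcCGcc
Krt2: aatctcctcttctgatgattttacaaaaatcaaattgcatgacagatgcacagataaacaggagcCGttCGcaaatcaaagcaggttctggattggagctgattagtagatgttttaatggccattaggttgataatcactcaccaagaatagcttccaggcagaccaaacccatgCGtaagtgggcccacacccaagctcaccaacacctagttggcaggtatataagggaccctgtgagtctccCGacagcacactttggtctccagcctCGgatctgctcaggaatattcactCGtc
Tchh: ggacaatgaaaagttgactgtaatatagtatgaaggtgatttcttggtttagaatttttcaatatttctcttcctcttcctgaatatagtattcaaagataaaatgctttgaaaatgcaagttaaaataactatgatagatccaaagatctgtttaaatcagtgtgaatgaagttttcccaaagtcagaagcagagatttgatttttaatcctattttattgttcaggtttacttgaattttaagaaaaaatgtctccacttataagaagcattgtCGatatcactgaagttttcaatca
The Six2 and Isl1 promoters held 37 CG each and that of Pax2 held 23, against 6 in Krt2 and 1 in Tchh.

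Several lists went against their labels or stood apart, which bears on the values below. The list labelled EZH2 ATRXΔRBR replicate 2 resembled WT: 95.9% and 97.3% of its peaks had a counterpart in WT replicates 1 and 2, and 83.6% had one in ATRXΔRBR replicate 1. Over the 555 domains, its coverage had a Spearman correlation of 0.95 and 0.96 with that of the WT lists and of 0.57 with that of ATRXΔRBR replicate 1, where the points share the same domains and their base composition. EZH2 values are therefore given for each list by its label. The lists labelled ATRX KD held narrow peaks. Their H3K27me3 peaks had a median width of 741 and 750 bp and none was wider than 5308 and 7749 bp, whereas the WT and ATRXΔRBR lists reached between 250552 and 289915 bp. Their highest −log10 q was 170 and 173, against 17.2 to 24.5 in the other 4 H3K27me3 lists, so a domain could hold at most short pieces there, and the effect of the shRNA cannot be told apart from that of another kind of library.

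RNA of the target gene was measured first. Atrx stood at 233 and 141 TPM in WT, 175 and 124 TPM in ATRXΔRBR and 331 and 512 TPM in the libraries labelled ATRX KD. The ATRX KD libraries were thus both above WT in TPM, and the fitted log2 fold change of counts was −0.15 (SE 0.21, edgeR, quasi-likelihood, Benjamini-Hochberg adjusted p = 0.60), so RNA did not show the knockdown and the group is named by its label. The study also examined ATRX protein in these lines, which is not analysed here. The fibroblast label held in most but not all markers. Vim reached 3903 to 6511 TPM and Col1a2 1772 to 2848 TPM over the 6 libraries, but Thy1 was at 0 in all 6 and Lum was at 0 in all but ATRXΔRBR replicate 1 (0.090 TPM). The 13 fibroblast markers summed to 13884 and 11604 TPM in WT, 21502 and 23521 TPM in ATRXΔRBR, beside 18870 and 19108 TPM for the ATRX KD label, with Vim or S100a4 as the most abundant. Of the 11 tested in ATRXΔRBR, 1 was higher (S100a4) and 1 lower (Col3a1), and of the 11 tested in ATRX KD, 3 were higher (Fn1, S100a4 and Pdgfrb) and 3 lower (Col3a1, Dcn and Twist1). Over all genes tested, 2.79% were higher and 4.08% lower in ATRXΔRBR, and 15.2% higher and 17.8% lower in ATRX KD. Col3a1, a fibrillar collagen, stood at 28.1 and 32.2 TPM in WT, 20.3 and 15.8 TPM in ATRXΔRBR and 0.36 and 0.75 TPM in ATRX KD. Each list of markers of other cell types summed to less than the fibroblast markers in every library. The 5 epithelial markers summed to at most 0.91 TPM, the 3 of skeletal muscle to at most 2.23 TPM (all from Des, with Myod1 and Myog at 0), and the 4 of endothelium to at most 5.38 TPM (mostly Pecam1, with Cdh5 at 0). Those of blood reached 12.1 TPM, where Cd68 was the most abundant and Adgre1 was at 0, and those of neurons and glia reached 51.5 TPM, where Map2 was the most abundant and Sox10 was at 0. Pecam1 and Des were higher in ATRXΔRBR than in WT, and Map2 was higher and Pecam1 and the epithelial marker Cdh1 lower in ATRX KD. Their part in the results below was not tested.

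Width varied widely among the domains. The median was 27967 bp, the quartiles were 23254 and 37466 bp, 48 domains spanned 50 kb or more and 5 spanned 100 kb or more. They tended to lie near each other: 288 (51.9%) had another wide domain within 100 kb, and 90 had one within 5 kb. WT replicate 2 covered a median of 99.3% of a domain, with a lowest value of 71.8%, and 390 domains (70.3%) were 1 unbroken piece there. The widest domain, chr15:102891527-103142078 (250552 bp, mm10), held the TSS of 9 Hoxc genes from Hoxc4 to Hoxc13, which set identity along the body axis, and of the noncoding RNA Hotair. The second, chr19:44717682-44849341 (131660 bp), held Pax2. The third, chr9:44996871-45122624 (125754 bp), held Cd3e of the T cell receptor complex, Mpzl2, Mpzl3, Jaml and the sodium channel subunit gene Scn2b. The fourth, chrX:169850805-169969852 (119048 bp), held no TSS and lay in the body of Mid1. The fifth, chr12:72844982-72961661 (116680 bp), held Six6, a homeobox factor of eye and pituitary, and 4930447C04Rik.

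Domains 6 to 10 in width held Lbx1, a homeobox factor of muscle precursors and spinal cord, on chromosome 19 (94687 bp), the class I histocompatibility genes H2-Q6, H2-Q7 and H2-Q10 on chromosome 17 (92395 bp), the near-identical pair Gm36079 and Gm21188 on chromosome 13 (89011 bp), no TSS on chromosome 9 (85081 bp), and Krt2, Krt1 and Krt77 on chromosome 15 (82774 bp). Reads of the H2-Q genes and of the chromosome 13 pair can be shared between copies, so which copy carried the mark is uncertain.

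The domains were spread unevenly over the chromosomes. Chromosome 19, the shortest autosome, held 36 domains, or 58.6 per 100 Mb, and they covered 2.32% of it. Chromosomes 17, 15, 9, 5, 8 and 2 followed with between 37.9 and 32.9 per 100 Mb. Chromosome 7 had 6.88 per 100 Mb (10 domains), chromosome X had 8.77 (15 domains) and chromosome Y had 0. The narrower H3K27me3 peaks were also densest on chromosome 19, with 2150 per 100 Mb, and sparse on chromosome 7, with 840. On chromosome X they numbered 1138 per 100 Mb, close to the 1139 of chromosome 2, which had 32.9 wide domains per 100 Mb. Chromosomes are not replicates, so these densities are a description of the WT lists.

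**Figure D1:**
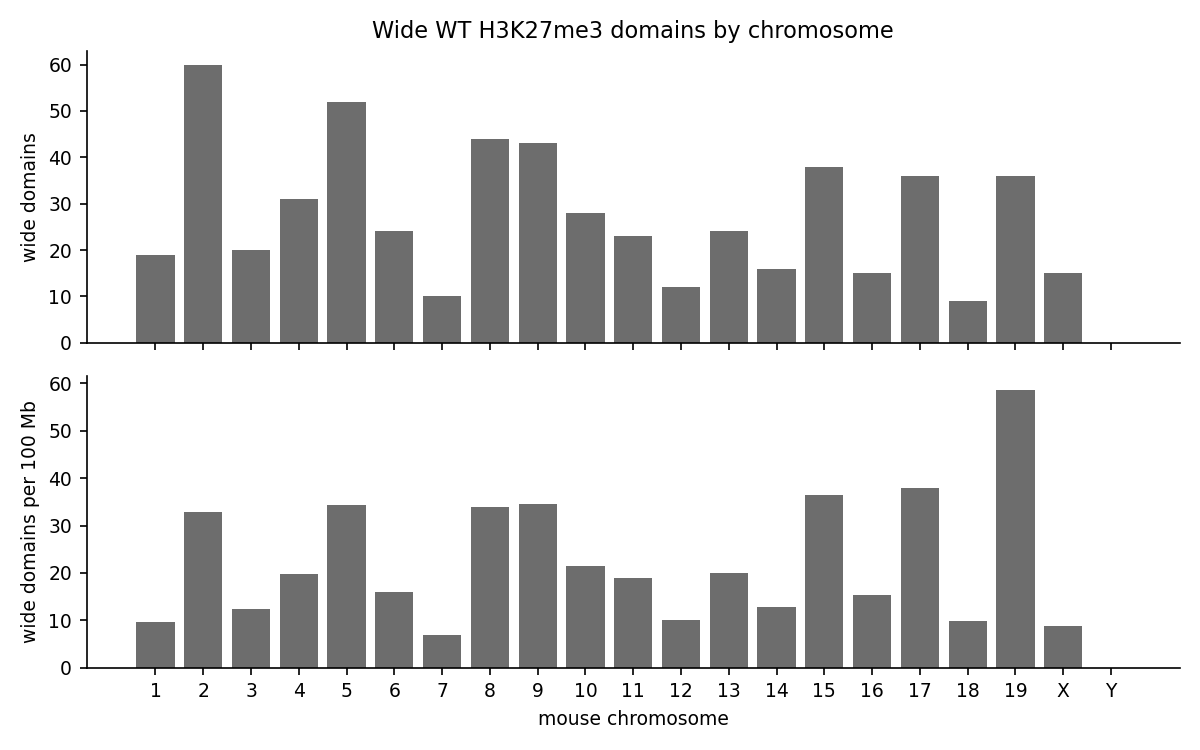
Bars give the number of wide WT H3K27me3 domains on each mouse chromosome (upper panel) and their number per 100 Mb of chromosome (lower panel). Chromosome 2 has the most (60), and chromosome 19 the highest density (58.6 per 100 Mb).

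Most of the domains held the start of a gene. In all, 291 domains (52.4%) held a protein-coding TSS, 81 (14.6%) only the TSS of other gene types and 183 (33.0%) none. Most domains with a protein-coding TSS had exactly 1 (241), and the Hoxc domain had the most (9). The 372 protein-coding genes with a TSS inside made up 1.69% of the 21951 in the annotation. Hox genes, the homeobox factors of body position, were the list with the largest share inside, 24 of 39 (61.5%) in 6 domains. Paired-box (Pax) genes followed with 5 of 9 (55.6%: Pax6, Pax3, Pax5, Pax7 and Pax2), then bHLH factors of neural and mesodermal lineages with 12 of 24 (50%, among them Neurog2, Tal1, Bhlhe23 and Ptf1a) and other homeobox genes with 46 of 106 (43.4%, among them Lhx2, Shox2, Six2 and Msx1).

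Other lists were less represented. Sox genes had 4 of 19 members inside (21.1%: Sox2, Sox6, Sox1 and Sox14), forkhead genes 6 of 44 (13.6%, among them Foxf1, Foxa2, Foxn4 and Foxi3), T-box genes 2 of 17 (11.8%: Tbx20 and Tbx5), keratins 6 of 53 (11.3%, among them Krt77, Krt6a, Krt72 and Krt73), Wnt ligands 2 of 19 (10.5%: Wnt7a and Wnt8b) and potassium channels 6 of 80 (7.50%, among them Kcnd3, Kcnj10, Kcnj9 and Kcna2). Olfactory receptors, counted here with their pseudogenes, had 12 of 1404 inside (0.855%). The share of all protein-coding genes, a set without pseudogenes, was 1.69%. Gata genes (0 of 6) and clustered protocadherins (0 of 56) had none, and no gene of PRC2, PRC1 or the H3K27 demethylases had its TSS in a wide domain. At 1.69% of all protein-coding genes inside, lists this small may hold none, so these zeros do not set them apart.

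In ATRXΔRBR most of these domains remained covered by H3K27me3 peaks, whereas in the lists labelled ATRX KD almost none of their length was. The median share of a domain under H3K27me3 peaks was 88.1% and 81.5% in the ATRXΔRBR replicates and 2.48% and 2.12% in the ATRX KD replicates, beside 99.3% in WT replicate 2. As a share of all domain bases these were 78.3% and 74.4%, 3.55% and 3.18%, and 98.0%. Against WT replicate 2, the median share was lower by 14.6 percentage points in ATRXΔRBR (SD 4.64 over its 2 lists) and by 97.03 in ATRX KD (SD 0.259). With peaks up to 3 kb apart joined, the difference in ATRXΔRBR was −6.38 points. With 1 WT list left beside the list that chose the domains, an exact permutation test could not pass the threshold, and none was run. Each list covered far more of the domains than of the genome: 22.6 times in WT replicate 2, 14.5 and 16.0 times in ATRXΔRBR and 15.2 and 15.5 times in ATRX KD. Of the bases of shared WT peaks under 20 kb, 55.3% and 49.8% were covered in ATRXΔRBR, less than of the domains. In ATRX KD the values were 4.29% and 3.89%, more than of the domains.

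**Figure D2:**
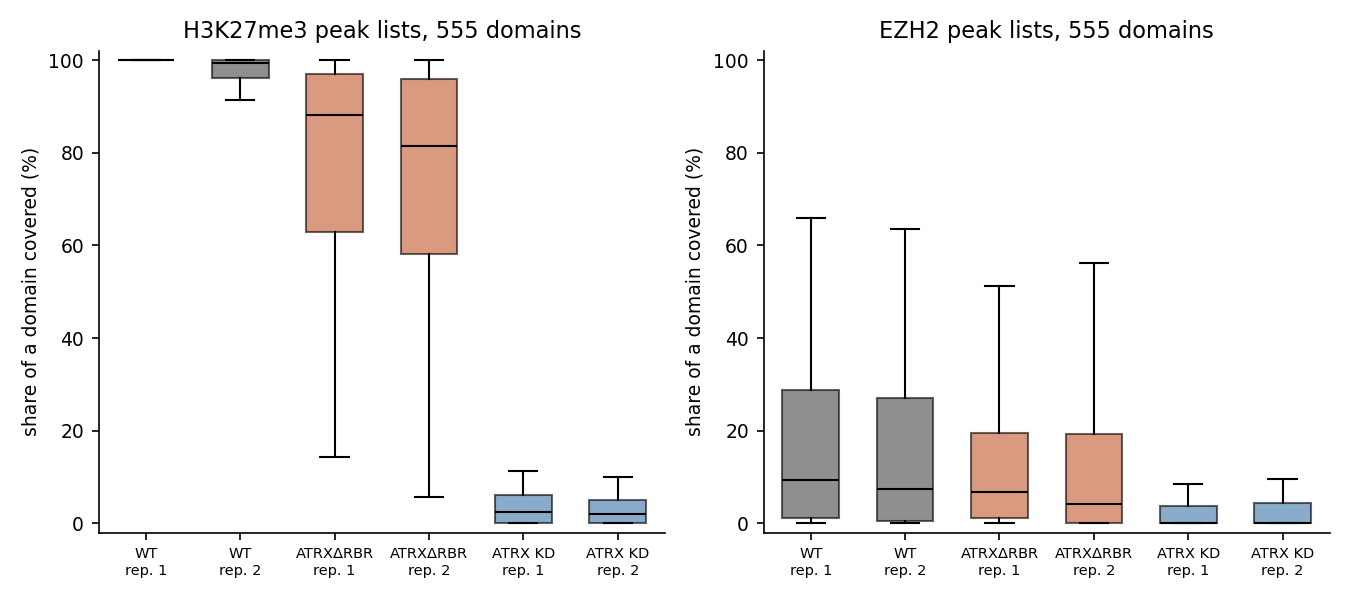
Share of a wide domain, in percent, under the H3K27me3 peaks (left) and EZH2 peaks (right) of each list over the 555 domains, where boxes span the quartiles, lines are medians and whiskers run from the 5th to the 95th percentile. WT replicate 1 is at 100% for H3K27me3 by construction, the ATRXΔRBR lists have medians of 88.1% and 81.5%, and the lists labelled ATRX KD have medians of 2.48% and 2.12%.

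Of the 555 domains, 437 (78.7%) were covered to 50% or more in both ATRXΔRBR lists, 94 (16.9%) lay between, and 24 (4.32%) were covered to under 10% in both. With only peaks of q up to 0.01 in the ATRXΔRBR lists, 42 were. Over all 28672 peaks shared by the WT replicates, 37.4% were covered to 50% or more in both ATRXΔRBR lists and 38.8% to under 10%. The shares changed with width: among shared peaks of 5 to 10 kb, 52.3% were covered to 50% or more and 19.2% to under 10%, and among those of 10 to 20 kb the shares were 65.3% and 9.91%. Of the 48 domains of 50 kb or more, none was under 10% in both lists, and their medians were 91.7% and 85.5%. In the lists labelled ATRX KD, 503 domains (90.6%) were covered to under 10% in both, and none reached 50%. Of all shared peaks 86.3% were under 10%, of those of 10 to 20 kb 79.8%, and of those of 5 to 10 kb 72.4%. No peak at all in either list was found in 129 domains (23.2%), against 81.4% of all shared peaks and 47.2% of those of 10 to 20 kb.

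The domains were chosen as unbroken in WT replicate 1, so breaks in another list are partly a matter of that choice. The ATRXΔRBR lists themselves held 910 and 743 peaks of 20 kb or more, against 555 and 705 in WT, and covered 5.41% and 4.66% of the genome against 3.78% and 4.34%. On the 910 such peaks of ATRXΔRBR replicate 1, WT covered a median of 62.4% and 69.6%. A WT domain held a median of 2 pieces in each ATRXΔRBR list, up to 18 in replicate 1 and 12 in replicate 2. A piece of 20 kb or more remained in 254 domains (45.8%) and 227 domains (40.9%), against 484 (87.2%) in WT replicate 2. At the other end, 40 domains (7.21%) were covered to 100% in both ATRXΔRBR lists, and the Hoxc domain was a single piece in each, at 99.8% and 99.98%. In the lists labelled ATRX KD, the longest piece per domain had a median of 684 and 582 bp, and none exceeded 3739 and 3775 bp. With each domain cut into 10 equal bins, the outermost bins were less covered in ATRXΔRBR (68.5% and 68.9% in replicate 1, 61.8% and 63.8% in replicate 2) than the 8 bins between them (78.3% to 82.4%, and 74.6% to 79.3%). WT replicate 2 had the same order, with 93.7% and 94.4% in the outermost bins and 98.3% to 99.5% between them.

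The domains with the highest ATRXΔRBR coverage (100% in both lists) were, in the order of width, one in the body of Dock3 on chromosome 9 (60823 bp), one at Dmbx1 on chromosome 4 (54747 bp), one at Gm10923 in the body of Smc1b on chromosome 15 (44242 bp), one at Zswim5 on chromosome 4 (44036 bp) and one without a gene, chr8:71127858-71171824. Dmbx1 is a homeobox factor of the midbrain, and Smc1b is a cohesin subunit of meiosis. EZH2 peaks covered 5.50% and 2.97% of the Dock3 domain in WT, 16.7% in ATRXΔRBR replicate 1 and 2.39% in the list labelled replicate 2. For the Smc1b domain these shares were 0 and 1.03%, 41.0%, and 0. Neither domain had an EZH2 peak in ATRX KD. The Dmbx1 domain was covered to 40.1% and 35.98% in WT, 35.5% and 31.9% in the ATRXΔRBR lists and 8.45% and 8.13% in ATRX KD. The Zswim5 domain stood at 16.9% and 18.6% in WT, 41.2% in ATRXΔRBR replicate 1, 11.3% in the list labelled replicate 2, and 0.51% and 5.42% in ATRX KD. The domain without a gene had an EZH2 peak in ATRXΔRBR replicate 1 only (5.44%). ATRXΔRBR replicate 1 was thus above both WT lists in 4 of the 5 domains and below them at Dmbx1, and the list labelled replicate 2 was above both WT lists in none.

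Of the 24 domains that ATRXΔRBR lists left largely uncovered, chromosomes 10, 13, 18 and X had 3 each. Their widths ran from 20336 to 40994 bp, and 17 had no H3K27me3 peak at all in either list. The widest of these 17 lay in the body of Gpc3 on chromosome X (29737 bp), and others were those of Msx1 (chr5:37808126-37836981), Six2 (chr17:85670099-85698350) and Kcnd3 (chr3:105430411-105458377). Msx1 is a homeobox factor of limb and craniofacial mesenchyme, and Kcnd3 is a potassium channel. A protein-coding TSS lay in 12 of the 24, near the share of all wide domains (52.4%), among them those of Sim1, Irx4, Prdm16, Tfap2c, Fezf2, Sfrp1, Isl1 and Skor2 beside Msx1, Six2 and Kcnd3. These 24 were chosen by H3K27me3 in ATRXΔRBR, so only the other readouts say more about them.

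EZH2 differed in the same 24 domains. EZH2 peaks covered on average 24.2% and 23.3% of each in WT, but 0.147% in ATRXΔRBR replicate 1, where 20 of the 24 held no EZH2 peak and none was covered above 1.16%. Over all 555 domains the means were 18.3% and 17.3% in WT and 13.6% in ATRXΔRBR replicate 1, where 115 (20.7%) held no EZH2 peak. The list labelled EZH2 ATRXΔRBR replicate 2 averaged 18.6% over the 24 and 13.5% over all 555. A near absence of EZH2 from the 24 thus rests on replicate 1 alone. At Six2, the EZH2 share was 50.4% and 49.6% in WT, 0 in ATRXΔRBR replicate 1, 44.9% in the list labelled ATRXΔRBR replicate 2, and 5.89% and 2.07% in ATRX KD. At Isl1 it was 44.9% and 45.3% in WT, 0 in ATRXΔRBR replicate 1, 29.7% in the list labelled replicate 2 and 0 in both ATRX KD lists. At Six2, at Isl1 and on average, the list labelled replicate 2 was thus below both WT lists, but nearer to them than to replicate 1.

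**Figure D3:**
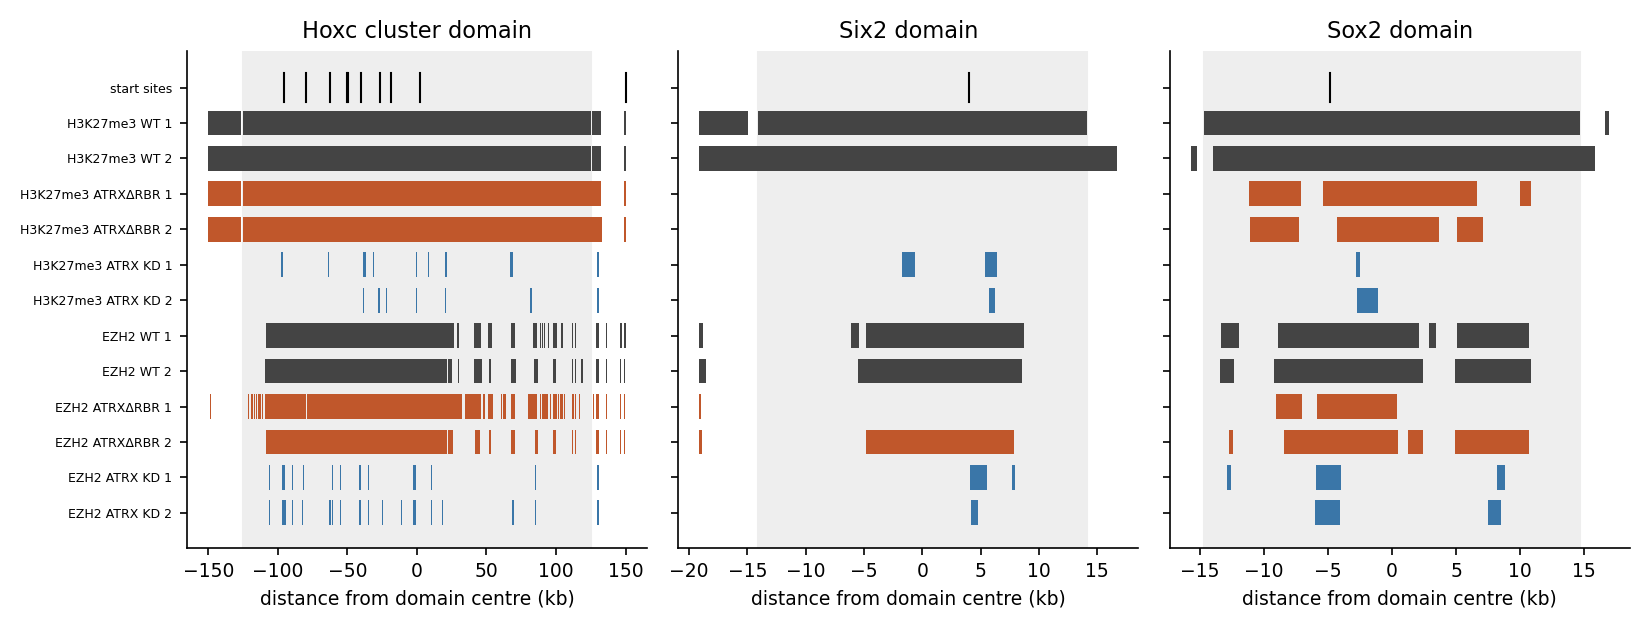
Peaks of every H3K27me3 and EZH2 list over 3 wide domains, as bars along the distance from the domain's centre in kb, with the domain shaded, gene starts as ticks and 1 row for each list. The Hoxc, Six2 and Sox2 domains are shown. The Hoxc domain is filled in WT and ATRXΔRBR and dotted with short pieces in ATRX KD, and the Six2 domain is empty of H3K27me3 in both ATRXΔRBR lists (0% and 0%).

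In the lists labelled ATRX KD, the highest shares were at Zfp423 (22.6% and 20.9%), a zinc finger factor of adipocyte and neural precursors, Hes5 (23.0% and 16.7%), a target of Notch signalling, 9430024E24Rik on chromosome 2 (18.7% and 20.1%), the body of Srcin1 (17.8% and 19.0%) and Barx1 (15.9% and 17.8%), a homeobox factor of stomach and teeth. The widest domains with no peak in either list were that in the body of Mid1 on chromosome X, one in the body of Hpse2 on chromosome 19 (72636 bp), one over the bodies of Sycp2l and Elovl2 on chromosome 13 (59180 bp), chr9:100242902-100292824 and one at Chic1 on chromosome X (47262 bp). Over the 15 domains of chromosome X, the median share was 79.4% and 69.4% in ATRXΔRBR and 0 in both ATRX KD lists.

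EZH2, which did not enter the choice of domains, covered more of the wide domains than of the narrower H3K27me3 peaks in every list. Its peaks lay over 19.7% and 18.6% of wide domain bases in WT, 15.3% and 14.7% in ATRXΔRBR, beside 2.15% and 2.50% for the ATRX KD label, against 5.32% and 4.76%, 4.57% and 3.26%, and 0.807% and 1.00% of the bases of peaks under 20 kb. The difference was 8.87 percentage points on average over the 6 lists (SD 5.93, higher in 6 of 6, two-sided exact sign-flip permutation test, p = 0.03125, the smallest that 6 lists allow). Without the list labelled ATRXΔRBR replicate 2 it was 8.35 points (exact permutation p = 0.0625, the smallest that 5 lists allow). An EZH2 peak was present in 434 and 422 domains in WT, 440 and 352 in ATRXΔRBR, beside 237 and 261 for the ATRX KD label. ATRX peaks were nearly absent from the domains, covering 0.0136% and 0% of their bases in WT and 0.0158% and 0.0119% in ATRXΔRBR, below each list's share of the genome.

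EZH2 peaks were denser near gene starts than elsewhere in the domains, and H3K27me3 peaks of ATRXΔRBR were sparser there. The windows within 2 kb of a start made up 7.94% of domain bases and held 24.1% and 24.9% of those under EZH2 in WT, so most EZH2 bases lay farther away. Within 2 kb of a protein-coding TSS, EZH2 peaks covered 59.9% and 58.2% of domain bases in WT, against 16.3% and 15.1% elsewhere in the domains. In ATRXΔRBR replicate 1 these were 33.9% against 13.7%, in the list labelled replicate 2 51.7% against 11.5%, and in ATRX KD 12.4% and 14.2% against 1.27% and 1.49%. H3K27me3 of ATRXΔRBR covered 74.7% and 71.2% within 2 kb of a TSS and 78.7% and 74.7% elsewhere, while that of ATRX KD covered 8.96% and 8.17% against 3.09% and 2.75%. In bins of 500 bp, H3K27me3 of ATRXΔRBR replicate 1 covered 79.9% at 1250 bp upstream of the TSS and 69.7% in the first bin downstream, and in replicate 2 the values were 76.7% and 66.1%. In ATRX KD replicate 1, H3K27me3 covered 13.8% at 1250 bp upstream, 2.43% in the first bin downstream and 11.4% at 1750 bp downstream, and in replicate 2 the values were 12.4%, 3.33% and 9.20%. EZH2 of ATRX KD covered 19.95% and 22.8% of that first bin downstream, against 6.14% and 7.49% at 1250 bp upstream.

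**Figure D4:**
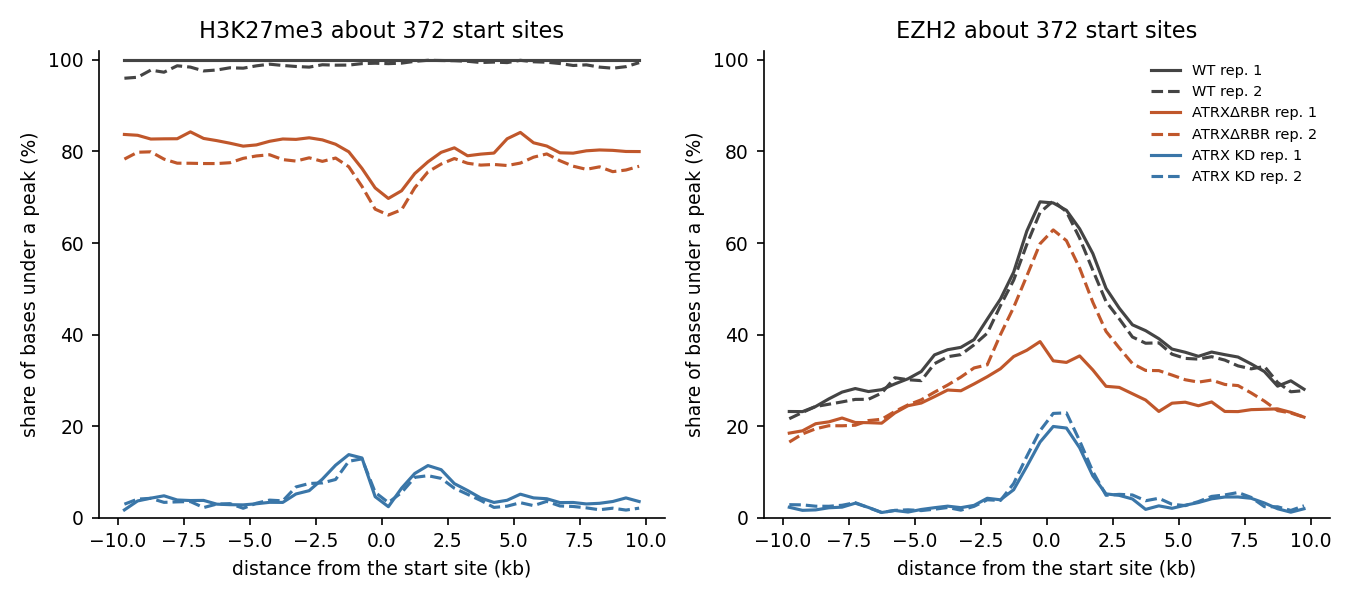
Share of domain bases under H3K27me3 and EZH2 peaks, in percent, by distance from the TSS of the protein-coding genes in wide domains, in bins of 500 bp within 10 kb on each side, over the 278 to 372 starts whose bin lay in the domain. EZH2 of WT peaks at the TSS (69.0% and 68.8% in the bins beside it in replicate 1), and H3K27me3 of the lists labelled ATRX KD has a gap at the TSS between shoulders.

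Counted by gene, 256 of the 372 protein-coding TSS (68.8%) lay under an EZH2 peak in each WT list, 135 (36.3%) in ATRXΔRBR replicate 1, 228 (61.3%) in the list labelled replicate 2, and 75 (20.2%) and 79 (21.2%) in ATRX KD, where 60 (16.1%) were under EZH2 in both. Under H3K27me3 were 369 (99.2%) in WT replicate 2, 256 (68.8%) and 246 (66.1%) in the ATRXΔRBR lists. Of the lists labelled ATRX KD, replicate 1 had 7 (1.88%), replicate 2 had 11 (2.96%), and 2 genes (0.538%) were shared.

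The domains were rich in CpG. They held 13.1 CpG per kb, against 8.34 in the genome, 10.4 in H3K27me3 peaks under 20 kb and 11.9 in those of 10 to 20 kb. Domains with a protein-coding TSS held 15.4, those with only other starts 11.7 and those without a TSS 9.58. Repeat-masked sequence made up 24.8% of their bases and 34.3% of the genome. Inside the domains, EZH2 peaks lay on the bases richer in CpG. The bases under WT EZH2 peaks held 28.6 and 29.7 per kb and the rest 9.33 and 9.37, and those under EZH2 peaks of ATRX KD held 58.7 and 57.9. Bases that H3K27me3 of ATRXΔRBR no longer covered held 16.4 and 15.7 per kb, against 12.2 and 12.2 where it remained. Over the 555 domains, the Spearman correlation with CpG density was 0.82 and 0.82 for the EZH2 share in WT, 0.40 in ATRXΔRBR replicate 1, 0.84 in the list labelled replicate 2 and 0.70 and 0.72 in ATRX KD, and −0.27 and −0.25 for the H3K27me3 share in ATRXΔRBR. For the H3K27me3 share in ATRX KD it was 0.48 and 0.45. These are descriptions across domains, which share lists and base composition. The 24 largely uncovered domains held 16.6 per kb, and 14 of them lay among the 185 domains with the most CpG, 7 among the middle 185 and 3 among the 185 with the least.

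Promoters showed the same order. RefSeq promoters of 300 bp were found for 283 of the 372 protein-coding genes, and for 271 the start lay in the domain. These 271 held a median of 15 CG, on a window where all 27025 promoters held a median of 7, and 142 of them (52.4%) had 15 CG or more, against 35.2% of all. The dinucleotide CG reads the same on both strands, and 94.2% of all promoters hold at least 1. The 184 whose TSS lay under EZH2 in WT replicate 1 had a median of 20 and the other 87 a median of 3. The 43 with a TSS under EZH2 in both ATRX KD lists had a median of 23, and the 8 of largely uncovered domains a median of 27. The Six2 and Isl1 sequences printed above are of the last kind, and Krt2 and Tchh are of the kind without EZH2 in WT replicate 1.

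RNA from the genes in the domains was mostly not detected. Of the 371 protein-coding genes with RNA values, 215 (58.0%) were at 0 TPM in all 6 libraries, and the median was 0 TPM in each. The share at 1 TPM or more was 6.74% in both WT libraries, 7.01% and 7.55% in ATRXΔRBR, beside 7.01% and 7.55% for the ATRX KD label. Among genes with a TSS in H3K27me3 peaks under 20 kb it was 15.6% and 16.9%, 12.9% and 12.7%, and 15.4% and 15.8%. The share was lower for the wide domains in 6 of 6 libraries, by 7.80 percentage points on average (SD 1.89, two-sided exact sign-flip permutation test, p = 0.03125, the smallest possible), a measure chosen after the medians of log2(TPM + 1) were seen to be 0 in both gene groups (difference 0, exact permutation p = 1). In bulk RNA, fewer cells expressing a gene and less RNA per cell cannot be told apart.

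A few genes were nevertheless expressed. In all, 40 protein-coding genes reached 1 TPM in some library and 17 did so in all 6. The 5 highest in WT were 1110004F10Rik (64.1 and 94.3 TPM), Rnf220, a ubiquitin ligase (67.2 and 63.5 TPM), Hoxb9 (53.8 and 56.1 TPM), Rsrc1, a splicing-related factor (47.7 and 51.7 TPM), and Ostm1, a lysosomal membrane protein (41.2 and 57.3 TPM). For most of them only the start lay in the domain: the share of the gene body inside was 29.5% for 1110004F10Rik, 10.4% for Rnf220, 0.996% for Rsrc1 and 11.2% for Ostm1. Hoxb9 lay wholly inside a domain (chr11:96260399-96282131) of which EZH2 covered 93.7% and 92.9% in WT, and it stood at 65.87 and 65.95 TPM in ATRXΔRBR, beside 58.1 and 53.8 TPM for the ATRX KD label. Its neighbour Hoxb8, with its TSS 226 bp from the edge, stood at 24.6 and 23.3 TPM in WT, 24.8 and 31.2 in ATRXΔRBR, beside 40.9 and 39.7 for the ATRX KD label. Neither passed the test in either comparison. Sox2 also lay wholly inside a domain and stood at 43.9 and 37.1 TPM in WT. Whether mark and RNA came from the same cells or the same allele was not tested.

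In ATRXΔRBR, 18 genes of the domains changed against WT by the quasi-likelihood test of edgeR, with p-values adjusted by Benjamini-Hochberg over all genes. Of 63 genes with enough counts to be tested, 8 were higher and 10 lower, and over all 16287 genes tested 2.79% were higher and 4.08% lower. The filter on counts passed 63 of the 802 genes with a TSS in a domain, and the count says nothing of the rest. At unadjusted p under 0.05 there were 28, and DESeq2 called 17. With at least 10 counts in every library, 7 of 24 domain genes and 597 of all 11929 were called. The median log2 fold change of the 63 was −0.10, beside −0.02 over all genes. The 18 lay in 18 different domains, 13 of them among the domains covered to 50% or more in ATRXΔRBR (6 higher and 7 lower of 51 tested). In the 24 largely uncovered domains, 4 of 22 genes could be tested, too few to read a direction from, and 0 were higher and 2 lower (Six2 and Sfrp1, both at 0 counts in ATRXΔRBR, so that only their WT counts passed the filter).

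Among the genes that rose was Pax3, the paired-box factor of neural crest and muscle precursors. It stood at 0.090 and 0.11 TPM in WT, 6.82 and 7.56 TPM in ATRXΔRBR and 0 in both ATRX KD libraries (log2 fold change in ATRXΔRBR 6.23, SE 0.41, edgeR adjusted p = 0.000336). Both ATRXΔRBR libraries were above both WT libraries. Its domain, chr1:78155066-78222225 (67160 bp), was covered to 27.6% and 24.1% by H3K27me3 in ATRXΔRBR. EZH2 covered 54.6% and 49.4% of it in WT, 2.54% in ATRXΔRBR replicate 1 and 38.4% in the list labelled replicate 2. Ccnd2, cyclin D2 of the G1 phase, rose from 1.39 and 1.44 TPM to 10.7 and 9.13 TPM (2.75, SE 0.24, edgeR adjusted p = 0.000811), in a domain that H3K27me3 of ATRXΔRBR still covered to 92.4% and 77.2%. Pax3 had 2 and 2 counts in WT and 105 and 196 in ATRXΔRBR. It passed the filter on counts through ATRXΔRBR alone, so it could only be called higher. Of these 2 genes, Pax3 lay in a domain that lost most of its peaks and Ccnd2 in one that kept most of them, which is a description.

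Shox2, a factor of limb and heart, went from 8.07 and 8.03 TPM to 20.6 and 18.8 TPM (1.23, SE 0.19, edgeR adjusted p = 0.00789), and Hoxa10 from 2.58 and 1.72 TPM to 5.46 and 8.01 TPM (1.59, SE 0.37, edgeR adjusted p = 0.0434). Without ATRXΔRBR replicate 2, Hoxa10 did not pass (log2 fold change 1.24, edgeR adjusted p = 0.16). Onecut2, a factor of liver and retina, rose from 0.090 and 0.060 TPM to 0.63 and 0.46 TPM. C920009B18Rik, annotated as a transcribed pseudogene, rose from 3.24 and 3.94 TPM to 20.7 and 16.6 TPM, with its TSS 196 bp inside the edge of its domain. Ndrg4 rose from 27.9 and 37.6 TPM to 62.2 and 63.2 TPM, and Kif26a, a kinesin-like protein, from 0 and 0.020 TPM to 0.26 and 1.42 TPM. Kif26a passed the filter on counts through ATRXΔRBR alone, so it could only be called higher. Onecut2 was also near 0 in WT. Ndrg4 and Kif26a each missed the threshold in some alternatives (edgeR adjusted p = 0.0504 and 0.0544 without WT replicate 1).

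Of the genes that fell, Sox2, a factor of neural and pluripotent cells, had the most RNA. It went from 43.9 and 37.1 TPM in WT to 18.7 and 17.5 TPM in ATRXΔRBR (−1.23, SE 0.20, edgeR adjusted p = 0.0102), in a domain (chr3:34640541-34669902) covered to 57.9% and 47.4%. Lhx2, a LIM homeobox factor of forebrain and hair follicle, fell from 10.4 and 8.15 TPM to 3.61 and 2.24 TPM (−1.61, SE 0.34, edgeR adjusted p = 0.0295), in a domain covered to 100% in both lists. Slc25a23, a mitochondrial carrier, fell from 6.33 and 5.52 TPM to 1.52 and 1.59 TPM, Tle4, a Groucho corepressor, from 2.17 and 2.55 TPM to 0.40 and 0.59 TPM, and Rorb, an orphan nuclear receptor, from 0.53 and 0.72 TPM to 0.080 and 0 TPM. In all 5 genes both ATRXΔRBR libraries were below both WT libraries.

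The other 5 fell to 0 counts in both ATRXΔRBR libraries, so their change is given as a lower bound against 3 counts per library. Gspt2, a translation termination factor on chromosome X, was at least 6.87-fold lower (1.47 and 1.52 TPM in WT), Sfrp1, a secreted Wnt antagonist, at least 5.41-fold lower (0.55 and 0.74 TPM), Tbx20, a T-box factor of heart, at least 5.30-fold lower (0.35 and 0.41 TPM), Tchh at least 4.16-fold lower (0.38 and 0.35 TPM) and Six2 at least 3.45-fold lower (0.74 and 1.05 TPM). All 5 passed the filter on counts through their WT libraries alone, so a gene of this kind could only be called lower. Six2 and Sfrp1 lay in domains with no H3K27me3 peak in either ATRXΔRBR list. The Tchh domain was covered to 99.8% and 99.9%.

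In the libraries labelled ATRX KD, 29 of 69 tested genes changed against WT, 13 higher and 16 lower, by the same edgeR test. Over all 16748 genes tested, 15.2% were higher and 17.8% lower. Both shares hang on single libraries: without WT replicate 1 or 2, 34 of 63 and 30 of 65 domain genes were called, beside 50.1% and 55.95% of all genes, and without ATRX KD replicate 1 or 2, 26 of 65 and 20 of 57, beside 21.6% and 20.7%. With at least 10 counts in every library, 11 of 21 domain genes and 39.9% of all genes were called, and DESeq2 called 25 of 69 and 28.8% of all genes. The median log2 fold change of the 69 was 0.18, beside −0.02 over all genes. Hoxa9 went from 4.40 and 4.68 TPM to 0.38 and 0 TPM (−7.12, SE 0.68, edgeR adjusted p = 0.000625), and Hoxa10 to 0 in both, at least 8.53-fold lower. Sox2 went to 1.10 and 0.55 TPM (−5.999, SE 0.31, edgeR adjusted p = 9.05e-05) and Shox2 to 1.31 and 0.66 TPM (−3.45, SE 0.30, edgeR adjusted p = 0.000479). Ccnd2 went to 0 and 0.020 TPM, and Rorb to 0 in both, at least 10.1-fold lower. Tchh (at least 4.71-fold lower), Tbx20, Six2, Zic5, a zinc finger factor of neural tissue, and 6530402F18Rik, a noncoding transcript, were also among the lower genes, and Six2, Zic5 and 6530402F18Rik each missed the threshold in 1 alternative. Hoxa9, Hoxa10, Tbx20 and Six2 had from 0 to 2 counts in each ATRX KD library, and Rorb and Tchh had 0 counts in both. All of these passed the filter through WT alone, so they could only be called lower. Ccnd2, at 0 and 0.020 TPM, was also near 0 there.

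Among the 13 genes that rose in these libraries, H2-Q2, a class I histocompatibility gene, went from 2.16 and 2.63 TPM to 17.3 and 14.1 TPM (2.48, SE 0.28, edgeR adjusted p = 0.0011), and H2-Q1 from 0.22 and 0.090 TPM to 1.80 and 1.70 TPM. H2-Q7 and H2-Bl also rose by the main test, but missed the threshold in 3 and 6 alternatives, and reads of these near-identical genes may be split between copies. Hoxb13 went from 0.51 and 0.080 TPM to 3.74 and 3.38 TPM (3.24, SE 0.62, edgeR adjusted p = 0.00808). Dmbx1 rose from 0.10 and 0.060 TPM to 0.93 and 1.28 TPM, Vax2, a homeobox factor of the ventral eye, from 0.23 and 0.14 TPM to 1.43 and 4.48 TPM, and Ppara, a nuclear receptor of lipid metabolism, from 0.070 and 0 TPM to 0.89 and 1.01 TPM. Onecut2 (log2 fold change 1.74) and Sema6b, a semaphorin (1.70), rose too, Onecut2 with 2 alternatives in which it missed the threshold. In WT, Hoxb13 had 8 and 1 counts, Dmbx1 4 and 2, and Vax2 2 and 1, and Ppara was at 0.070 and 0 TPM. These genes passed the filter on counts through the ATRX KD libraries alone, so they could only be called higher.

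The comparisons share their WT libraries, so their calls are set side by side only. Both groups were lower for 6 genes of the domains (Tbx20, Tchh, Six2, Rorb, Tle4 and Sox2) and higher for 2 (Ndrg4 and Onecut2). Shox2, Hoxa10 and Ccnd2 were higher in ATRXΔRBR and lower in ATRX KD. Among the developmental lists, the members in domains that could be tested were few: 5 Hox genes (1 higher in ATRXΔRBR, 1 higher and 2 lower in ATRX KD), 6 and 8 other homeobox genes (2 higher and 2 lower, 3 higher and 2 lower), 2 and 1 Pax genes (1 higher, none called), 2 Sox genes (1 lower in each) and 1 T-box gene (lower in each). Beside these few members stand the shares of all genes called, 2.79% higher and 4.08% lower in ATRXΔRBR and 15.2% and 17.8% in ATRX KD. None of the 12 bHLH genes, 6 keratins and 12 olfactory receptors inside could be tested, since they had too few counts.

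**Figure D5:**
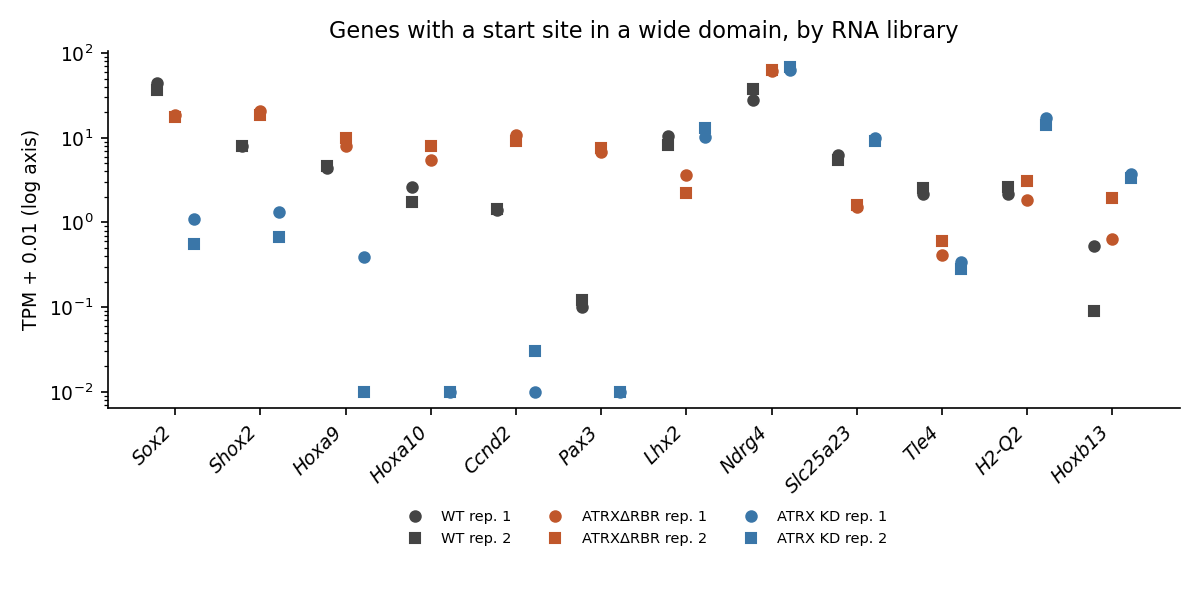
TPM of 12 genes with a TSS in a wide domain in each RNA-Seq library, on a log axis after adding 0.01 TPM, with circles for replicate 1 and squares for replicate 2. Sox2 is highest in WT (43.9 and 37.1 TPM), Pax3 in ATRXΔRBR (6.82 and 7.56 TPM), and H2-Q2 in the libraries labelled ATRX KD (17.3 and 14.1 TPM).

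Genes of the machinery that writes and erases the mark lay outside the domains and were expressed. Of 12 PRC2 genes, 1 was higher and 0 lower in ATRXΔRBR, namely Ezh1, the second methyltransferase (12.3 and 16.5 TPM in WT, 35.2 and 26.5 in ATRXΔRBR, log2 fold change 1.03), where 2.79% of all genes were higher and 4.08% lower. In ATRX KD, 3 were higher (Ezh2, Ezh1 and Phf19) and 5 lower (Mtf2, Aebp2, Eed, Phf1 and Rbbp7), where 15.2% and 17.8% of all genes were. Ezh2 stood at 204 and 177 TPM in WT, 246 and 206 in ATRXΔRBR, beside 243 and 236 for the ATRX KD label, where its log2 fold change was 0.37. Neither H3K27 demethylase passed the test in either comparison.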

How the data were processed

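CUT&RUN peak lists of H3K27me3, EZH2 and ATRX and RNA-Seq gene tables were deposited for MEFs, with 2 replicates per group. The authors aligned CUT&RUN reads to mm10 with Bowtie2 and called broad peaks per library with MACS2 at a broad cutoff of 0.1. Whether IgG libraries served as control is not given in the sources used here. The deposited lists give a score, fold enrichment as a ratio, and −log10 of p and q. The authors aligned RNA reads with STAR and quantified genes with RSEM, and the deposited tables hold estimated counts, TPM and FPKM. Of these, peak positions, −log10 q, estimated counts and TPM were used.

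The share of each domain under the merged peaks of every other list was computed on GRCm38, where no peak ran past the end of a chromosome, with GENCODE M21 for gene starts. A peak that overlapped by 1 bp counted as shared. Estimated counts were rounded and tested with edgeR 4.0.16 (quasi-likelihood, TMM) in R 4.3.3 on the 4 libraries of each comparison, for genes with more than 10 counts in total, and p-values were adjusted by Benjamini-Hochberg with a threshold of 0.05. DESeq2 1.42.0 was an alternative. Strand-specific counting is not stated, so overlapping and antisense genes cannot be told apart. Values over 6 libraries were compared with two-sided exact sign-flip permutation tests. Scripts ran in Python 3.11.15, and the edgeR step and the coverage step were tested on simulated data. The domains, gene lists and tests were chosen with earlier results of these data known. The genes named are those called in a comparison (at most 10 per direction), the 5 protein-coding genes of highest TPM in WT, and up to 4 examples per list, and the domains named are the 10 widest and the 5 lowest and 5 highest in coverage. A few items that these rules would name are not reported here. No interval is given for peak shares, since the lists hold no read totals.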

Additional observations from a re-analysis of the deposited data

How the results depend on the processing

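The 18 genes of the domains called in ATRXΔRBR became 7 with at least 10 counts in every library and 7 when the domain had to cover at least 50% of the gene body, and the 29 called in ATRX KD became 11 and 15. Leaving out a replicate gave 15 to 21 and 20 to 34. Over all genes, the 1120 calls in ATRXΔRBR became 597 with at least 10 counts in every library and 1979 with no filter. Replicate numbers do not pair the libraries (r of deviations −0.51 for WT and ATRXΔRBR and −0.070 for WT and ATRX KD, over 13288 genes). With a replicate block the counts were 20 and 29, and with the pairing crossed, added after seeing the data, 28 genes of the domains and 5547 of all genes were called in ATRXΔRBR. The 555 domains became 1988 from 10 kb and 236 from 30 kb. The difference of the median H3K27me3 share from WT replicate 2, −14.6 points in ATRXΔRBR, was −6.38 with peaks up to 3 kb apart joined, −21.6 over all bases and −19.2 from 10 kb, and −17.8 to −11.3 with 1 list. In ATRX KD, −97.03 points became −93.3 with domains of WT replicate 2 and WT replicate 1 as the reference (median share 95.3%), −99.3 at q of 0.01, −97.7 with peaks joined, −94.7 over all bases and −98.5 from 10 kb, and −97.2 to −96.8 with 1 list. The 24 largely uncovered domains became 166 of 1988 from 10 kb, 42 at q of 0.01 and 41 of 705 with domains of WT replicate 2, and 24 to 33 with 1 list, all added after seeing the data. The EZH2 difference of 8.87 points was 8.82 to 8.91 with 1 replicate (exact permutation p = 0.25, the smallest that 3 lists allow) and 8.35 without the list labelled ATRXΔRBR replicate 2 (exact permutation p = 0.0625). The share of genes at 1 TPM, lower by 7.80 points, was −7.86 to −7.73 with 1 replicate (exact permutation p = 0.25). The difference of the median of log2(TPM + 1), 0, was −0.12 for genes of at least 0.1 TPM in some library (exact permutation p = 0.03125). Of 364 alternatives for the 38 fold changes of named genes, 344 kept their call, 20 missed the threshold and 0 changed sign. Of the 20, 6 concerned H2-Bl, 3 H2-Q7, 3 Ndrg4 in ATRXΔRBR, 2 Kif26a in ATRXΔRBR, 2 Onecut2 in ATRX KD, and 1 each Hoxa10 in ATRXΔRBR and Six2, Zic5 and 6530402F18Rik in ATRX KD. The cause was not tested for any of these.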

Other observations

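The reverse selection, made after seeing the data, took the wide H3K27me3 peaks of ATRXΔRBR that WT lacked. Of 910 peaks of 20 kb or more in ATRXΔRBR replicate 1 that overlap a peak of replicate 2, 200 (21.98%) were covered to under 10% in both WT lists. They had a median width of 25628 bp and summed to 5.87 Mb. Chromosome 1 held the most, 34, followed by chromosome 3 with 21, while chromosome X held 5. A protein-coding TSS lay in 35 of the 200, 46 in all. Of 15 genes of these regions tested in ATRXΔRBR, 0 were higher and 5 were lower than in WT, where 2.79% and 4.08% of all genes were, and of 18 tested in ATRX KD, 2 were higher and 4 lower (15.2% and 17.8% of all genes). The regions were chosen from the same line in which this RNA was measured, by another assay. A gene near 0 in ATRXΔRBR could pass the filter on counts only through WT, so it could only be called lower. Among the 5, Txndc16, a thioredoxin-domain protein, stood at 10.3 and 15.3 TPM in WT and 2.78 and 3.14 TPM in ATRXΔRBR (log2 fold change −2.12, edgeR adjusted p = 0.00232). Calcrl, a receptor of the calcitonin family, stood at 1.76 and 2.41 TPM in WT and 0.11 and 0.28 TPM in ATRXΔRBR (log2 fold change −3.24, edgeR adjusted p = 0.0076). Mfsd6 (log2 fold change −5.004) and the kinase gene Sgk3 (−2.45) were the other protein-coding genes that fell. Mfsd6 was near 0 in ATRXΔRBR (0.12 and 0 TPM, against 1.32 and 1.38 TPM in WT).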
